A study of Mus musculus with 6 samples.

Results

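The genes described here encode the core of the extrinsic cell death pathway: the death ligand Fasl, the receptors Fas, Tnfrsf10b, Tnfrsf1a and Tnfrsf1b, the adaptor Fadd, the initiator protease Casp8, its relative and regulator Cflar, and the kinase Ripk1. They were chosen by gene symbol, and all 9 were found once each among the 47729 genes listed in every library. Their transcripts were measured by RNA sequencing of bulk RNA from activated CD8+ T cells of mouse spleen. One group of 3 libraries came from cells given 2 µM blebbistatin for 24 h, and the other group of 3 came from cells given vehicle. Blebbistatin blocks the ATPase of nonmuscle myosin II, the motor that contracts the actin cortex of a cell. The labels name no strain, age, sex or genotype of the mice and no activating stimulus. They do not say what the vehicle was, although its libraries carry the short name pbs. Whether the replicates are separate mice, cultures or repeats of 1 culture is not stated either, so p-values cover the spread between these libraries, which may be technical.

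Fas and the mouse death receptor encoded by Tnfrsf10b carry a death domain that, on ligand binding, gathers the adaptor FADD and procaspase-8 into a signalling complex. Caspase-8 is activated by dimerisation there, and cFLIP, the product of Cflar, can take its place in the dimer and limit or redirect its activity. TNF receptor 1, encoded by Tnfrsf1a, instead first assembles a complex around TRADD and RIPK1 that activates NF-kappaB and can later turn to caspase-8 or to necroptosis, while TNF receptor 2, encoded by Tnfrsf1b, has no death domain and binds TRAF proteins. In activated T cells Fas and its ligand are best known for activation-induced cell death and for killing of target cells, and both Fas and Tnfrsf10b are known transcriptional targets of p53.

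Each library held an implied 18500000 to 19900000 fragments, and the members rested on 234 to 2161 fragments per library, with Fasl at the low end and Tnfrsf1b at the high end. The unit is TPM, a transcript's share of all transcripts corrected for length, which allows levels to be compared between genes. Levels of T cell identity genes summed to 4516 to 4691 TPM in blebbistatin libraries and to 4721 to 4768 TPM in vehicle libraries, and 1 of 8, Thy1, fell. Some markers of CD4+ T cells (Cd4), B cells (Ms4a1, Pax5), macrophages (Adgre1, Csf1r), neutrophils (S100a9) and NK cells (Ncr1) were each below 1 TPM in every library. Other markers in these lists were higher: Fcgr3 of the myeloid list reached 2.00 TPM in blebbistatin 1, and Lyz2 reached 1.58 TPM in blebbistatin 3. The B cell list summed to 478 to 506 TPM with blebbistatin and 505 to 520 TPM with vehicle, nearly all of it Ighm. Without Ighm that sum was 14.4 to 19.4 TPM with blebbistatin and 11.2 to 14.5 TPM with vehicle, mostly Cd79b, and 0 of 2 tested B cell markers passed by limma, as did 0 at an unadjusted p below 0.05. Cd79a, too low to be tested, had 1.11, 0.944 and 1.59 TPM in blebbistatin libraries 1, 2 and 3, against 0.363, 0.419 and 0.425 TPM in vehicle libraries. The platelet and erythroid list summed to 111 to 129 TPM with blebbistatin and 51.4 to 61.4 TPM with vehicle, and 4 of its 6 tested genes, all of platelets (Ppbp, Pf4, Treml1 and Itga2b), rose. The erythroid gene Hba-a1 had 1.27 TPM with blebbistatin and 1.52 TPM with vehicle on average and did not pass, and Hbb-bs and Gp1bb were too low to be tested. Smaller sums were also higher in every blebbistatin library than in every vehicle library for the CD4 and regulatory T cell list (32.8 to 39.9 TPM with blebbistatin and 24.8 to 29.9 TPM with vehicle, mainly Ikzf2 and Zbtb7b, with 0 of 3 tested passing by limma and 1 at an unadjusted p below 0.05), the myeloid list (11.7 to 12.9 TPM with blebbistatin and 7.25 to 9.79 TPM with vehicle, mainly Cd68, with 0 of 2 passing and 1 at an unadjusted p below 0.05) and the NK cell list (0.992 to 1.44 TPM with blebbistatin and 0.612 to 0.771 TPM with vehicle, none tested). The dendritic cell list overlapped (0.993 to 1.90 TPM with blebbistatin and 1.302 to 1.74 TPM with vehicle, none tested, with Siglech at 0). The part of these other cells in the results below was not tested.

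The first question was which of the 9 genes differed in level after myosin II was inhibited. Fas and Tnfrsf10b rose, and the other 7 did not pass the test. By limma on log2(TPM + 1), with Benjamini-Hochberg adjustment over the 13372 genes whose mean reached 1 TPM, all 9 members were tested and 2 passed at an adjusted p of 0.05, both higher and 0 lower. Of all genes tested, 1.82% passed in either direction, 1.40% higher and 0.426% lower. The split of the calls varied with some of the processing choices and with the libraries used. Of all called genes, 76.6% were higher as reported, 75.1% by FPKM, 77.0% with quantile scaling and 66.0% with median-ratio scaling. The share was 58.9% once each library had been corrected for length and GC content. With 1 library left out it ran from 45.5% (without blebbistatin 2) to 100% (13 calls without vehicle 1 and 3 calls without blebbistatin 3). The groups did not overlap for 4 of the 9 members, 3 higher (Fas, Tnfrsf10b, Fasl) and 1 lower (Tnfrsf1b), while 31.0% of all genes tested did not overlap, 18.0% higher and 13.0% lower. At an unadjusted p below 0.05 the members did not stand apart, with 2 of 9 against 22.9% of all genes tested. The median log2 fold change was 0.10 over the members and 0.03 over all genes, and the median of its absolute size was 0.16 over the members and 0.14 over all genes. In bulk RNA, a change in the number of cells of a type and a change in RNA per cell cannot be told apart.

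**Figure D1:**
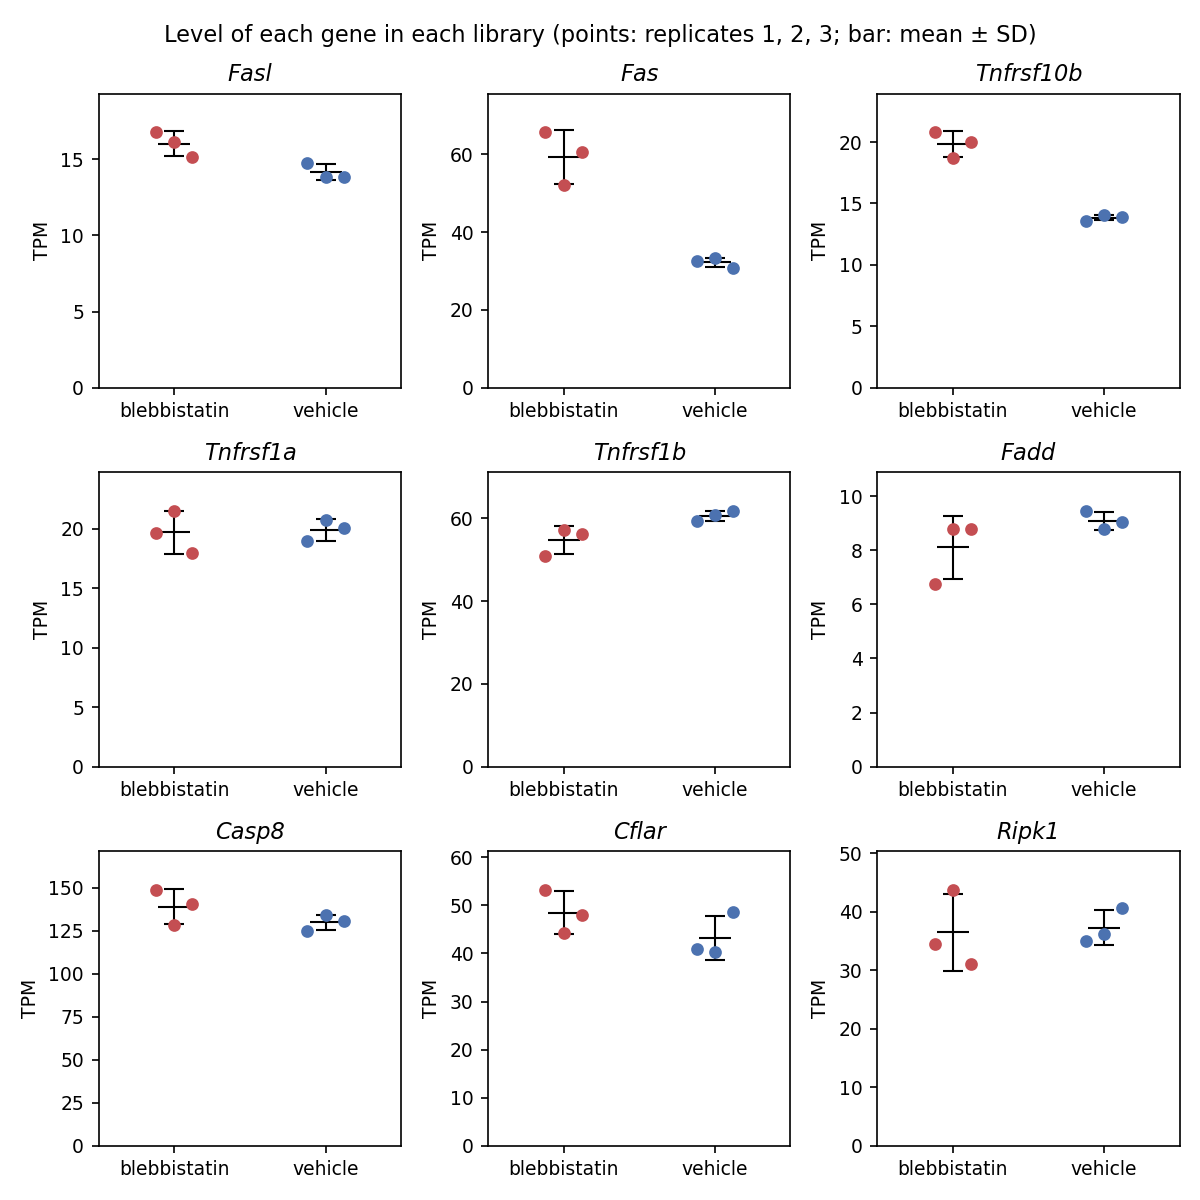
Level of each of the 9 genes in TPM (vertical axes, starting at 0) in the 3 blebbistatin libraries (red, left) and the 3 vehicle libraries (blue, right), with points for replicates 1 to 3 from left to right and bars for the mean ± SD. The groups are separate for Fas, Tnfrsf10b, Fasl and Tnfrsf1b, and the gap is widest for Fas, at 59.4 ± 6.94 TPM with blebbistatin and 32.2 ± 1.21 TPM with vehicle.

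Fas (ENSMUSG00000024778), the receptor that starts apoptosis when bound by Fas ligand, lies at chr19:34290659-34327770 on the plus strand of GRCm38. It stood at 65.7, 52.0 and 60.5 TPM in blebbistatin libraries 1, 2 and 3, against 32.5, 33.2 and 30.9 TPM in vehicle libraries 1, 2 and 3. Every blebbistatin library lay above every vehicle library, and blebbistatin 2 was the lowest of the treated libraries. The means were 59.4 ± 6.94 TPM with blebbistatin and 32.2 ± 1.21 TPM with vehicle (mean ± SD over 3 libraries, as for all such values), a log2 fold change of 0.86 (SE 0.09, 95% interval 0.64 to 1.07) with an adjusted p of 0.016 by limma. Against the vehicle mean, blebbistatin libraries 1, 2 and 3 were higher by 1.01, 0.68 and 0.89 on the log2 scale. These levels rested on 966, 791 and 909 fragments in the blebbistatin libraries and on 455, 479 and 463 fragments in the vehicle libraries. The call was lost when vehicle 1 (adjusted p = 0.087), vehicle 2 (adjusted p = 0.065), vehicle 3 (adjusted p = 0.075) or blebbistatin 3 (adjusted p = 0.089) was left out, although the log2 fold change stayed between 0.78 and 0.95 over the 6 fits with 1 library left out. Where the call was lost, only 3 to 13 of all genes tested passed.

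The promoter of Fas is shown beside that of its ligand because the receptor rose while the ligand did not pass the test. Each window runs from 250 bases before to 50 bases after the RefSeq start (GRCm38.p6), at chr19:34290409-34290708 on the plus strand for Fas and chr1:161788446-161788745 on the minus strand for Fasl, and capitals mark the matches to the motifs that were searched.
Fas: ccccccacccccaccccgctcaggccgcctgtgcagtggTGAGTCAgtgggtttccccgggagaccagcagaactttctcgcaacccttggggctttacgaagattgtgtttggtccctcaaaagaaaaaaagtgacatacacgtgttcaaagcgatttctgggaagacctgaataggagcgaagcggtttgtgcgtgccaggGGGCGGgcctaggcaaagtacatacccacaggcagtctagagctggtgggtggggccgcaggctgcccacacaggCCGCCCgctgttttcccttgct
Fasl: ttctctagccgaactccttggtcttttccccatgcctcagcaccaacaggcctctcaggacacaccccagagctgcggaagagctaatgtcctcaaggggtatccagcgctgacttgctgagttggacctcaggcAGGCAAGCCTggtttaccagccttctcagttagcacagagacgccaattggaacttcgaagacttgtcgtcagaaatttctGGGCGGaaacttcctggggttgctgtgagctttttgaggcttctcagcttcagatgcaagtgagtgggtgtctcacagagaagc

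Both strands were searched for the GC box GGGCGG, the TATA box TATAAA, the AP-1 site TGANTCA, and the p53 half-site and the NF-kappaB site by their usual consensus. The Fas window held 1 AP-1 match and 2 GC boxes, and none of the other motifs. The Fasl window held 1 GC box and 1 p53 half-site match. Over 32851 RefSeq promoters of the same length, a GC box occurred in 35.7%, a TATA box in 13.6%, an AP-1 site in 7.81%, a p53 half-site in 8.36% and an NF-kappaB site in 4.51%. RefSeq promoters were matched for 8 of the 9 members. Of the others matched, Tnfrsf1b and Fadd held 2 GC boxes each, Cflar held 2 overlapping TATA matches on opposite strands, both promoters of Ripk1 held GC boxes (3 and 4), and Tnfrsf1a and Casp8 held no match. A match describes the letters in the window, not a bound site. Sequence outside the windows was not searched, so a missing match does not speak for the whole gene. The Casp8 window, at chr1:58802252-58802551, lies inside the gene, which starts at 58795374. The Tnfrsf1a window, at chr6:125349473-125349772, also lies inside its gene, which starts at 125349362. So does the Ripk1 window with 4 GC boxes, at chr13:34002624-34002923, in a gene that starts at 34002363.

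Tnfrsf10b (ENSMUSG00000022074), the only mouse death receptor for the ligand TRAIL, lies at chr14:69767472-69784403 on the plus strand. It had 20.8, 18.7 and 20.0 TPM in blebbistatin libraries 1, 2 and 3, against 13.6, 14.02 and 13.9 TPM in vehicle libraries 1, 2 and 3. The groups did not overlap, and blebbistatin 2 was again the treated library nearest to vehicle. The means were 19.8 ± 1.08 TPM with blebbistatin and 13.8 ± 0.218 TPM with vehicle, 1.43 times as high, and the log2 fold change was 0.49 (SE 0.07, 95% interval 0.31 to 0.66, limma adjusted p = 0.033). It rested on 1037, 962 and 1003 fragments with blebbistatin and on 657, 689 and 715 fragments with vehicle. These numbers were worked out over merged exons of 5451 bases and may be too high, since the longest annotated transcript has 3179 bases. The call was lost without vehicle 1 (adjusted p = 0.144), vehicle 2 (0.127), vehicle 3 (0.130), blebbistatin 1 (0.056) or blebbistatin 3 (0.143), and also when genes of any level were tested (adjusted p = 0.062), with a log2 fold change of 0.45 to 0.53 over the fits with 1 library left out. Where the call was lost with 1 library left out, 3 to 120 of all genes tested passed. Its ligand gene Tnfsf10 stood at 13.7 ± 0.334 TPM with blebbistatin and 13.6 ± 1.62 TPM with vehicle.

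Fasl (ENSMUSG00000000817), the membrane ligand of Fas and an effector of cytotoxic T cells, lies at chr1:161780689-161788495 on the minus strand. It was measured at 16.8, 16.1 and 15.2 TPM in blebbistatin libraries 1, 2 and 3, against 14.8, 13.8 and 13.9 TPM in vehicle libraries 1, 2 and 3. The blebbistatin libraries were all above the vehicle libraries, by a small margin. The difference did not pass (log2 fold change 0.17, 95% interval -0.01 to 0.35, adjusted p = 0.24 by limma).

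The 2 TNF receptors had no call in either direction. Tnfrsf1b (ENSMUSG00000028599, chr4:145213463-145246870, minus strand), the receptor without a death domain, had 50.8, 57.1 and 56.1 TPM in blebbistatin libraries 1, 2 and 3, against 59.3, 60.7 and 61.8 TPM in vehicle libraries 1, 2 and 3. All blebbistatin values lay below all vehicle values, at 54.7 ± 3.38 TPM with blebbistatin and 60.6 ± 1.24 TPM with vehicle, yet the difference did not pass (log2 fold change -0.15, SE 0.06, limma adjusted p = 0.225). Tnfrsf1a (ENSMUSG00000030341, chr6:125349362-125362484, plus strand), the death domain receptor of TNF, had 19.7, 21.5 and 17.9 TPM in blebbistatin libraries and 18.9, 20.8 and 20.1 TPM in vehicle libraries. The groups overlapped, with the highest and the lowest value both among the blebbistatin libraries. The log2 fold change was -0.02, with a 95% interval of -0.22 to 0.19 (adjusted p = 0.919), which leaves out a change as large as that of Fas, and its sign turned when vehicle 2 or blebbistatin 3 was left out or when length and GC content were corrected for.

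**Figure D2:**
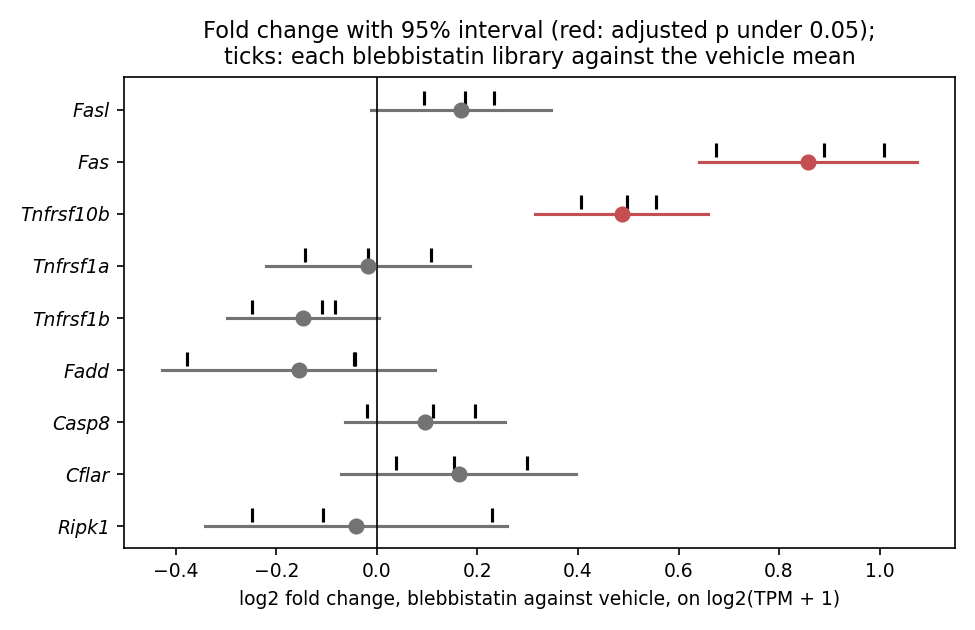
Log2 fold change of each gene, blebbistatin against vehicle, on the log2(TPM + 1) scale (horizontal axis), with points for the estimate, horizontal lines for its 95% interval, red for an adjusted p below 0.05 and black ticks for each blebbistatin library against the vehicle mean. All 3 ticks lie right of 0 for Fas (0.68 to 1.01) and Tnfrsf10b (0.41 to 0.56), and the intervals of the other 7 genes include 0.

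Among the genes inside the cell, none of the 4 passed, and all 4 overlapped between the groups. Fadd (ENSMUSG00000031077, chr7:144577318-144582463, minus strand), the adaptor between the death receptors and caspase-8, had the lowest level of the 9, at 6.76, 8.79 and 8.77 TPM in blebbistatin libraries 1, 2 and 3, against 9.45, 8.79 and 9.03 TPM in vehicle libraries 1, 2 and 3. Blebbistatin 1 lay well below the vehicle range, and blebbistatin 3 lay just below it. The log2 fold change was -0.16 (95% interval -0.43 to 0.12, adjusted p = 0.441 by limma). Of the merged exons of Fadd, 6.1% overlap Faddos on the other strand, and the library kit did not mark strand, so reads there cannot be told apart.

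Casp8 (ENSMUSG00000026029, chr1:58795374-58847503, plus strand), the initiator caspase, had the highest level of the 9, above 90.9% of all genes tested. Its levels were 148.9, 128.2 and 140.5 TPM in blebbistatin libraries 1, 2 and 3, against 125.1, 134.2 and 130.7 TPM in vehicle libraries 1, 2 and 3. Blebbistatin 1 and 3 were above the vehicle range and blebbistatin 2 was inside it. The log2 fold change was 0.10 (95% interval -0.06 to 0.25, adjusted p = 0.418 by limma). Cflar (ENSMUSG00000026031, chr1:58711508-58758884, plus strand), which limits caspase-8, lies upstream of Casp8 on the same strand, with a gap of 36.5 kb and 1 annotated gene, Gm3841, between them. Cflar had 53.2, 44.2 and 48.0 TPM in blebbistatin libraries, against 40.9, 40.2 and 48.6 TPM in vehicle libraries. Vehicle 3 lay among the treated libraries, and the difference did not pass (log2 fold change 0.16, 95% interval -0.07 to 0.40, adjusted p = 0.359).

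Ripk1 (ENSMUSG00000021408, chr13:34002363-34035170, plus strand), the kinase and scaffold that TNF receptor 1 recruits, varied more than any other member among the blebbistatin libraries. It had 34.4, 43.7 and 31.1 TPM in blebbistatin libraries 1, 2 and 3, against 34.9, 36.2 and 40.6 TPM in vehicle libraries 1, 2 and 3, so that blebbistatin 2 was the highest and blebbistatin 3 the lowest of all 6. The coefficient of variation was 17.9% with blebbistatin and 8.02% with vehicle. The log2 fold change was -0.04 (95% interval -0.34 to 0.26, adjusted p = 0.866 by limma), and its sign turned without vehicle 3, without blebbistatin 3 and when the deposited read coverage replaced TPM. Overlapping annotation covers 11.8% of its merged exons within the deposited bounds, from Serpinb6a on the other strand and Gm17084 on the same strand.

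The spread among replicates was larger with blebbistatin than with vehicle for 8 of the 9 members, with Cflar the exception at 9.32% with blebbistatin and 10.8% with vehicle. The coefficient of variation was 11.7% with blebbistatin and 3.75% with vehicle for Fas, and 14.4% with blebbistatin and 3.69% with vehicle for Fadd. The difference in spread was not tested, and the same count was not made over all genes tested. Whether it is particular to the members is thus not known.

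The order of the levels differed most in the place of Fas. Among blebbistatin libraries the order of the mean TPM ran Casp8, Fas, Tnfrsf1b, Cflar, Ripk1, Tnfrsf10b, Tnfrsf1a, Fasl and Fadd. The ranges of Fas and Tnfrsf1b, of Tnfrsf1b and Cflar, and of Tnfrsf10b and Tnfrsf1a overlapped there, and the other neighbours were separate. Among vehicle libraries the order ran Casp8, Tnfrsf1b, Cflar, Ripk1, Fas, Tnfrsf1a, Fasl, Tnfrsf10b and Fadd, and only the ranges of Cflar and Ripk1 and of Fasl and Tnfrsf10b overlapped. Fas thus stood in place 2 with blebbistatin and in place 5 with vehicle, while Tnfrsf10b stood in place 6 with blebbistatin and in place 8 with vehicle. Casp8 was first and Fadd last in both groups.

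The 4 receptors also differed in their shares of the summed receptor level, a measure added after the values were seen and given without a test. Their sum was 154 ± 3.93 TPM with blebbistatin and 127 ± 2.21 TPM with vehicle. Fas held 38.6 ± 3.55% of it with blebbistatin and 25.4 ± 0.933% with vehicle. The share of Tnfrsf10b was 12.9 ± 0.377% with blebbistatin and 10.9 ± 0.051% with vehicle. Tnfrsf1b held 35.6 ± 3.01% with blebbistatin and 47.9 ± 0.818% with vehicle, and Tnfrsf1a held 12.8 ± 1.43% with blebbistatin and 15.7 ± 0.455% with vehicle. Since shares add up to a whole, the lower shares of the TNF receptors follow in part from the higher level of Fas.

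**Figure D3:**
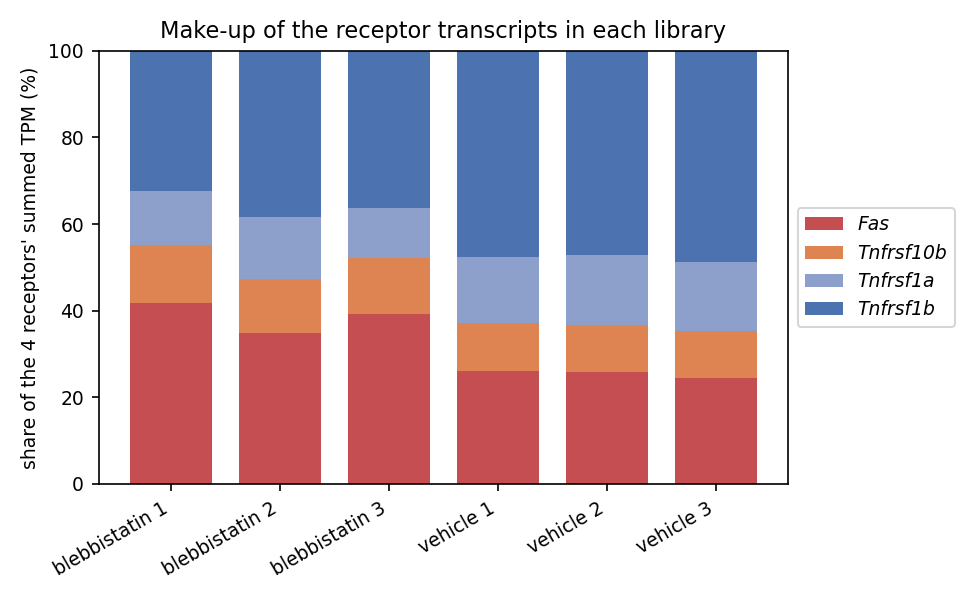
Share of each of the 4 receptor genes in their summed TPM (vertical axis, percent) in each library, blebbistatin 1 to 3 on the left and vehicle 1 to 3 on the right. Fas (red) takes 34.8% to 41.9% of the bar in blebbistatin libraries and 24.4% to 26.1% in vehicle libraries.

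The balance between partners was then compared as ratios of TPM within a library, which are free of scaling between libraries. With 3 libraries in each group the exact two-sided permutation test cannot give a p below 0.1, so none of the 5 ratios could pass at 0.05. The ratio of Fas to Fasl was 3.91, 3.23 and 3.99 in blebbistatin libraries 1, 2 and 3, against 2.20, 2.40 and 2.23 in vehicle libraries 1, 2 and 3. It was the only ratio whose groups did not overlap, with a log2 difference of 0.70 (SE 0.11), an exact p of 0.1, the smallest possible, and an adjusted p of 0.5 over the 5 ratios. The ratio of Casp8 to its regulator Cflar was 2.80, 2.90 and 2.93 in blebbistatin libraries and 3.06, 3.33 and 2.69 in vehicle libraries, with all blebbistatin values inside the vehicle range (log2 difference -0.07, exact p = 0.5, adjusted p = 0.6).

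The ratio of Casp8 to Fadd was 22.0, 14.6 and 16.0 in blebbistatin libraries and 13.2, 15.3 and 14.5 in vehicle libraries (log2 difference 0.27, exact p = 0.2, adjusted p = 0.5), with the highest value in blebbistatin 1, where Fadd was lowest. The ratio of Tnfrsf1b to Tnfrsf1a was 2.59, 2.66 and 3.13 with blebbistatin and 3.13, 2.93 and 3.08 with vehicle (log2 difference -0.13, exact p = 0.3, adjusted p = 0.5). The ratio of Ripk1 to Casp8 was 0.231, 0.341 and 0.221 with blebbistatin and 0.279, 0.270 and 0.311 with vehicle (log2 difference -0.14, exact p = 0.6, adjusted p = 0.6). The groups overlapped in these 3 ratios.

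**Figure D4:**
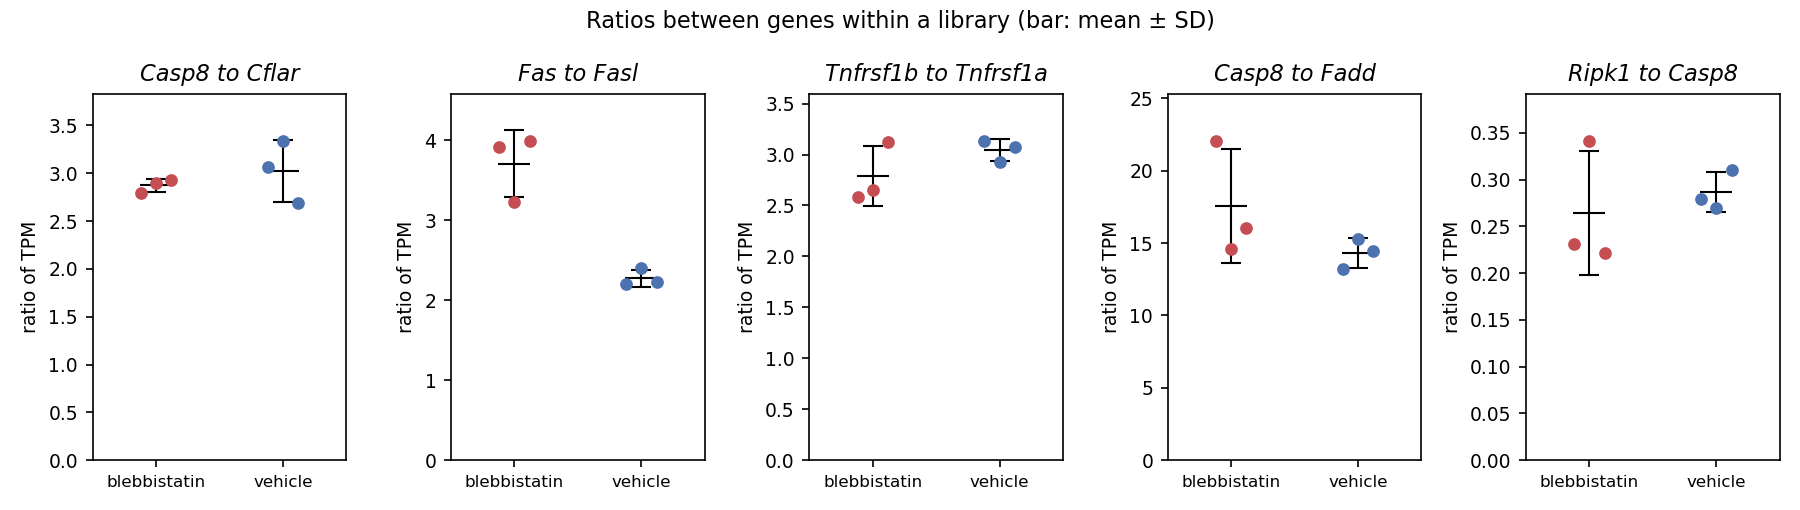
Ratio of the TPM of 2 genes within a library (vertical axes, starting at 0) in blebbistatin libraries (red, left) and vehicle libraries (blue, right), with points for replicates and bars for the mean ± SD. The groups are separate for Fas to Fasl, at 3.71 ± 0.420 with blebbistatin and 2.28 ± 0.109 with vehicle, and overlap for the other 4 ratios.

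The wider pathway was read from 7 lists of 78 genes, of which 72 were tested. Of these, 5 rose and 1 fell, 8.33% in all against 1.82% of all genes tested. By limma, 30 of 72 had an unadjusted p below 0.05, against 22.9% of all genes tested. The lists were chosen with earlier results of these data known, and the differences between these shares were not tested. The median log2 fold change was 0.03 over these genes and 0.03 over all genes tested. Without any 1 vehicle library or without blebbistatin 3, 0 of the 72 passed by limma, although 14 to 19 had an unadjusted p below 0.05. The adjusted p of the 6 called genes then lay between 0.058 and 0.173. Over all genes, 3 to 13 of 13362 to 13389 tested passed in the same fits, and 2146 to 2171 had an unadjusted p below 0.05. The loss of calls was thus not particular to the pathway. Without blebbistatin 2, 14 passed, 9 higher and 5 lower, in a fit where the calls over all genes also grew, to 1092 of 13341 tested (497 higher and 595 lower). Without blebbistatin 1, 3 passed, against 120 of 13333 over all genes.

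Among other receptors of the family, 1 of 9 tested passed. Tnfrsf26, a mouse receptor related to the TRAIL decoy receptors, had 25.4, 22.4 and 24.5 TPM in blebbistatin libraries 1, 2 and 3, against 17.1, 16.8 and 18.0 TPM in vehicle libraries, with no overlap between the groups (log2 fold change 0.45, SE 0.08, limma adjusted p = 0.042). Of the ligands, 0 of 5 tested passed by limma and 3 had an unadjusted p below 0.05. Ltb, lymphotoxin beta, had the highest level and the largest difference of them, at 224, 367 and 256 TPM in blebbistatin libraries 1, 2 and 3, against 375, 377 and 372 TPM in vehicle libraries (log2 fold change -0.44, SE 0.16, adjusted p = 0.181), and without blebbistatin 2 it passed (-0.64). Tnf, the ligand of both TNF receptors, and Lta, lymphotoxin alpha, were chosen after their values were seen: Tnf had 42.2 ± 1.95 TPM with blebbistatin and 48.8 ± 2.51 TPM with vehicle, and Lta had 278 ± 7.32 TPM with blebbistatin and 305 ± 1.06 TPM with vehicle. Neither overlapped between groups, both being lower with blebbistatin, and neither passed (adjusted p = 0.147 for Tnf and 0.155 for Lta).

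In the TNF receptor signalling complex 2 of 25 tested genes passed, both higher. Ikbke, a kinase of the NF-kappaB and interferon pathways, had 78.1, 78.1 and 73.7 TPM in blebbistatin libraries 1, 2 and 3, against 56.9, 55.1 and 58.0 TPM in vehicle libraries (log2 fold change 0.43, SE 0.05, limma adjusted p = 0.023). Birc3, the ubiquitin ligase cIAP2 that modifies RIPK1, had 59.2, 52.4 and 54.9 TPM in blebbistatin libraries and 43.0, 42.6 and 43.0 TPM in vehicle libraries (log2 fold change 0.36, SE 0.06, adjusted p = 0.045). The groups were separate for both genes. Of the necroptosis genes 0 of 5 passed by limma, and 1, Pgam5, had an unadjusted p below 0.05. Ripk3, the kinase that RIPK1 activates in necroptosis, had 60.8 ± 3.87 TPM with blebbistatin and 60.7 ± 3.81 TPM with vehicle, and Pgam5, a mitochondrial phosphatase, had 47.9 ± 1.13 TPM with blebbistatin and 36.6 ± 9.99 TPM with vehicle (adjusted p = 0.20), with vehicle 2 at 48.1 TPM inside the treated range.

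Of the other caspases 1 of 7 tested passed. Casp4, which in mouse (as caspase-11) senses intracellular lipopolysaccharide and drives pyroptosis, had 18.0, 14.4 and 16.0 TPM in blebbistatin libraries 1, 2 and 3, against 9.53, 11.0 and 10.5 TPM in vehicle libraries, with no overlap (log2 fold change 0.59, SE 0.10, limma adjusted p = 0.045). In the mitochondrial branch 0 of 10 passed by limma and 3 had an unadjusted p below 0.05. Bax, the pore former, had 346 ± 39.7 TPM with blebbistatin and 345 ± 12.5 TPM with vehicle, and Apaf1, the core of the apoptosome, had 33.6 ± 2.89 TPM with blebbistatin and 25.8 ± 2.33 TPM with vehicle (adjusted p = 0.10).

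Among modulators of Fas and caspase-8, 2 of 11 tested passed, in opposite directions. Lgals3, galectin-3, a lectin that binds surface glycoproteins and can also act inside the cell against apoptosis, fell: it had 65.0, 78.9 and 66.8 TPM in blebbistatin libraries 1, 2 and 3, against 125, 108 and 122 TPM in vehicle libraries (log2 fold change -0.75, SE 0.09, limma adjusted p = 0.022). Dapk1, a calmodulin-regulated death-associated kinase, had 5.36, 5.27 and 5.11 TPM in blebbistatin libraries and 3.22, 3.42 and 3.39 TPM in vehicle libraries (log2 fold change 0.53, SE 0.10, adjusted p = 0.049). The groups were separate for both genes. Below the minimum level and not tested were Tnfsf15, Ltbr, Ngfr, Casp12, Casp14 and Faim2, of which Ngfr, Casp14 and Faim2 were listed at 0 in every library.

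**Figure D5:**
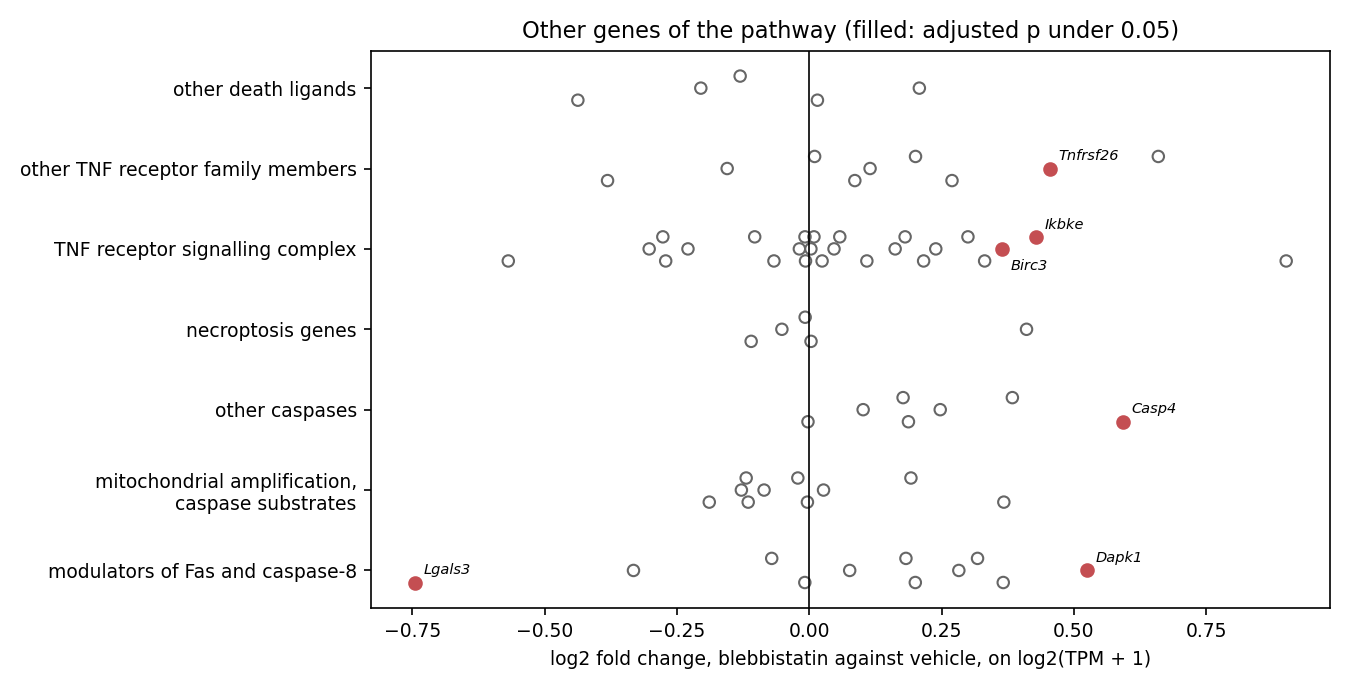
Log2 fold change, blebbistatin against vehicle, on the log2(TPM + 1) scale (horizontal axis) of the 72 other pathway genes tested, 1 row per list, with filled red points for an adjusted p below 0.05. The 6 filled points are Tnfrsf26, Ikbke, Birc3, Casp4 and Dapk1 on the right and Lgals3 on the left at -0.75.

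For the 2 members that rose, the genes most like them were taken by Pearson correlation of log2(TPM + 1) over the 6 libraries, among the 9221 tested genes whose mean reached 5 TPM and that were neither predicted genes nor receptor V segments. The points share their libraries and fall into 2 groups, so the values only describe likeness. The pattern of Fas was most like those of Glrx3 (r = 0.999), Mgst2 (0.997) and Plek (0.997), and that of Tnfrsf10b was most like those of Btg1 (0.999) and Trp53inp1 (0.999). Trp53inp1, encoding a p53-inducible nuclear protein, had 164, 134 and 149 TPM in blebbistatin libraries 1, 2 and 3, against 63.2, 70.8 and 68.5 TPM in vehicle libraries. In this gene, as in Fas and Tnfrsf10b, blebbistatin 2 was the lowest treated library and still above all vehicle libraries. Plek encodes pleckstrin, a protein abundant in platelets, and had 23.6, 19.6 and 21.5 TPM in blebbistatin libraries, against 14.4, 14.7 and 14.3 TPM in vehicle libraries.

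The deposited tables allow a rough look at transcript length within a gene, because read coverage is averaged over all merged exons while FPKM is scaled by the transcripts in use. Their ratio, set to 1 where a single transcript fills the gene, was 0.780 to 0.791 with blebbistatin and 0.766 to 0.776 with vehicle for Fas, which has 5 annotated transcripts. For Cflar, with 13 annotated transcripts, it was 0.199 to 0.206 with blebbistatin and 0.188 to 0.196 with vehicle, and for Ripk1 it was 0.250 to 0.265 with blebbistatin and 0.214 to 0.237 with vehicle. For Casp8 it was 0.528 to 0.535 with blebbistatin and 0.537 to 0.548 with vehicle. For Tnfrsf1b it was 0.983 to 0.995 with blebbistatin and 0.966 to 0.982 with vehicle, so that the groups barely separated. For Fasl and Tnfrsf1a the groups overlapped. How often the groups separate over all genes is not given here. The ratios shown are a description chosen after they were seen and were not tested, and single transcripts were not analysed here. Fadd, with 1 annotated transcript, stood at 1.00 in every library. Tnfrsf10b did too, although 3 transcripts are annotated for it, with merged exons of 5451 bases and a longest transcript of 3179 bases. Its ratio therefore cannot be read in the way given above, and the reason was not tested. Fas rose by either measure, with a log2 fold change of 0.87 by coverage.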

How the data were processed

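Per the labels, RNA from TRIzol and chloroform extraction went into libraries of a TruSeq RNA kit, which does not mark strand, and was sequenced on a NovaSeq. HISAT2 2.1.0, StringTie 1.3.4, DESeq2 1.22.2 and mm10 are named, without roles, per the submitters' processing notes. The deposited gene tables hold TPM and FPKM values made by the authors, and the deposited coverage is unnormalized read depth per gene. Further settings are not given in the sources used. TPM summed to 1000000 in each library, and 12 to 14 genes per library were listed at 2 places, whose TPM and FPKM had been combined and whose coverage was not used. Depth came from coverage divided by FPKM (5.54 to 5.98), taking 300 aligned bases as 1 fragment. No 2 libraries held identical TPM values.

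Genes whose mean reached 1 TPM were tested on log2(TPM + 1), a scale that understates changes of low genes, by limma 3.58.1 (R 4.3.3), empirical Bayes with trend and Benjamini-Hochberg adjustment at 0.05. Ratios were compared by exact permutation tests. On simulated data for blebbistatin against vehicle over 13372 genes, the test recovered 68% of 1.5-fold and 91% of 2-fold changes, with 9 false calls, and made 0 calls with no change. Figures used matplotlib 3.10.9 in Python 3.11.15. Positions come from the deposited tables and overlaps from GENCODE for GRCm38, which held 98.9% of the identifiers.

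Members and lists were chosen with earlier results of these data known. Other pathway genes named are those that passed and, in lists with none, the one of highest level and the one of largest change, unless said otherwise. A gene that the naming rules give is not reported here. Alternatives covered the pseudocount, minimum level, FPKM, scaling, limma options, a block on replicate number, length and GC content, and leaving out each library.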

Additional observations from a re-analysis of the deposited data

How the results depend on the processing

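Counts depended most on which libraries were used. Of all genes tested, 244 passed, against 49 with no minimum level, 160 with no trend, 477 with a length and GC correction and 3 to 1092 with 1 library left out. Of the 9 members, 2 passed, against 1 with no minimum level and 0 to 2 with 1 library left out, while at least 2 had an unadjusted p below 0.05 in every fit by limma. Of the other pathway genes 6 passed, against 1 with no minimum level, 2 after quantile scaling, 3 with no trend and 0 to 14 with 1 library left out. The labels give replicates the same numbers in both groups. The deviations of same-numbered libraries correlated at -0.037 to 0.011, and those of unlike-numbered libraries at -0.030 to 0.059. No pairing was seen, but correlations over 3 libraries a group cannot settle whether same-numbered libraries share a mouse or culture. With a replicate block 0 genes, 0 members and 0 other pathway genes passed by limma, where 2628, 2 and 22 had an unadjusted p below 0.05, and the adjusted p was 0.082 for Fas and 0.135 for Tnfrsf10b. Other alternatives left the member count at 2.

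Fas kept a log2 fold change of 0.76 to 0.95 and Tnfrsf10b one of 0.40 to 0.53 over 18 alternatives each, with adjusted p of 0.0096 to 0.089 and 0.018 to 0.144. The log2 fold change of Tnfrsf1a turned to 0.071 with the length and GC correction and lay between -0.080 and 0.044 with 1 library left out, above 0 without vehicle 2 or blebbistatin 3. That of Ripk1 turned to 0.11 with coverage in place of TPM, an alternative chosen after seeing the data, and lay between -0.18 and 0.061 with 1 library left out, above 0 without vehicle 3 or blebbistatin 3. The cause was not tested. The 5 ratios kept their direction over 8 alternatives each, except that Casp8 to Cflar reached 0.003 at its highest. Fadd, at 241 to 332 fragments a library, and Fasl, at 234 to 292, carry the largest counting error of the members.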

Other observations

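Some genes of the pathway lists outside the naming rule had libraries of 1 group far apart, and they were chosen after their values were seen. Xiap, an inhibitor of caspases, had 13.1, 37.4 and 37.6 TPM in blebbistatin libraries 1, 2 and 3, against 14.1, 13.3 and 13.8 TPM in vehicle libraries 1, 2 and 3. Blebbistatin 1 thus lay at the level of vehicle and the other treated libraries far above it, and the difference did not pass (log2 fold change 0.90, SE 0.37, limma adjusted p = 0.204). Tradd, the adaptor of TNF receptor 1, had 17.3, 31.6 and 22.1 TPM in blebbistatin libraries, against 37.2, 34.1 and 32.5 TPM in vehicle libraries. All treated libraries were below vehicle without a call (log2 fold change -0.57, SE 0.19, adjusted p = 0.158), and blebbistatin 2 was closest to vehicle; without that library the gene passed (log2 fold change -0.79, adjusted p = 0.022). Daxx, a Fas-binding protein, and Rbck1, a subunit of the linear ubiquitin ligase, passed only without blebbistatin 2 among the fits run, with log2 fold changes there of -0.45 for Daxx and -0.39 for Rbck1.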
